A study of Mus musculus with 12 samples.

Results

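The genes of the lysosomal cathepsins and of the lysosomal membrane glycoprotein Lamp1 were followed in mouse liver. They were taken by symbol from the table of counts and are Ctsa, Ctsb, Ctsc, Ctsd, Ctsh, Ctsk, Ctsl, Ctss, Ctsz and Lamp1, which make 10 of its 25540 rows. All 10 were found and all 10 passed the filter on low counts. Polyadenylated RNA of 12 liver samples of BALB/c mice was sequenced, 3 in each of 4 groups. The groups were livers after injection of siSTAT3 iExos and their controls after siCntrl iExos, called the si arm here, and livers after mASO STAT3 iExos and their controls after mASO Scrbl iExos, called the mASO arm. All livers, controls included, thus received iExos of 1 kind. The series title speaks of exosomes, small vesicles that cells release, and of liver fibrosis, and the labels give no genotype, age, dose, time or injury. Whether replicates are different mice is not stated, and the p-values below therefore rest on a spread between libraries that could be technical.

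Cathepsins are proteases of the lysosome, the acidic compartment in which cells digest proteins taken up from outside or delivered by autophagy. Most are papain-like cysteine proteases (B, C, H, K, L, S and Z), while cathepsin D is an aspartic protease and cathepsin A a serine carboxypeptidase. Many are made as inactive precursors, tagged with mannose 6-phosphate and carried to the lysosome. In liver, hepatocytes and macrophages both contain them. Many lysosomal genes carry the E-box CACGTG near their start, within a longer element bound by the transcription factor TFEB.

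The promoters of 5 genes are shown because they differ in how many copies of the E-box they hold and because the genes include ones that were higher (Lamp1 and Ctsa), lower (Ctsl, and Ctss in siSTAT3 livers) and not past the test (Ctsd) in the STAT3 livers. Entries were found for 8 of the 10 genes in RefSeq's promoters (build GRCm38.p6, 300 bases each), with 2 starts for Ctsa. Ctsb and Ctsh are named only. Capitals mark CACGTG, which reads the same on both strands. The sequences are those of Lamp1 (chr8:13158911-13159210, + strand), the second Ctsa entry (chr2:164833523-164833822, + strand), Ctsd (chr7:142387778-142388077, - strand), Ctsl (chr13:64370471-64370770, - strand) and Ctss (chr3:95526536-95526835, + strand), each 5′ to 3′.
Lamp1: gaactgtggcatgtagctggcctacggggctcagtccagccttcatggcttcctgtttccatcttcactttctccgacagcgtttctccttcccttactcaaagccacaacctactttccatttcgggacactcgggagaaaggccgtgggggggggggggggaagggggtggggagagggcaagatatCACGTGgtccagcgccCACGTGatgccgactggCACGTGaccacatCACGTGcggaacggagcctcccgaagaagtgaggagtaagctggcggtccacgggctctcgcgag
Ctsa: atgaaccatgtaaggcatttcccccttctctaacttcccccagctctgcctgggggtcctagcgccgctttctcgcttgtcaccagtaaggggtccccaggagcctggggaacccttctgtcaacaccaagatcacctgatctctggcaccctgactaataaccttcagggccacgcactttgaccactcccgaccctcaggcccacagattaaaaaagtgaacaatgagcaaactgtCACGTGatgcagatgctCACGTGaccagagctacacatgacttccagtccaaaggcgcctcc
Ctsd: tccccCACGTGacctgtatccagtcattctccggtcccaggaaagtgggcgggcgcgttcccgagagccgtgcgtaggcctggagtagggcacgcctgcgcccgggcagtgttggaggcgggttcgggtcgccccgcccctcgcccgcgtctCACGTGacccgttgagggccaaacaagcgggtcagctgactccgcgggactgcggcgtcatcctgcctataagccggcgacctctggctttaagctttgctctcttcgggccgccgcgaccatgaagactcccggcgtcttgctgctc
Ctsl: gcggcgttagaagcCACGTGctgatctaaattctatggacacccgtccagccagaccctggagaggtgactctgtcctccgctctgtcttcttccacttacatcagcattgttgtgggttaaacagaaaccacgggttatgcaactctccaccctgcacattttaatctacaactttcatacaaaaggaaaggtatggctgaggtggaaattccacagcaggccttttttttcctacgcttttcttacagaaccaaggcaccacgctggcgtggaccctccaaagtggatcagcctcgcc
Ctss: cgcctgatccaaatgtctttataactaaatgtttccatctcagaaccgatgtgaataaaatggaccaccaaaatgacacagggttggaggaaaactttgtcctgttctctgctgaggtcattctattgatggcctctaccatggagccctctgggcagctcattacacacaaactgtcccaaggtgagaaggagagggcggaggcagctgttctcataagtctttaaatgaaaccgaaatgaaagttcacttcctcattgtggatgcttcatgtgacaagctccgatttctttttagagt
The Lamp1 window held 4 copies, with their first bases at −61, −45, −28 and −15 from the annotated start. The Ctsa window held 2, at −12 and 5, and the Ctsd window also 2, at −245 and −98. Ctsl had 1 copy, at −236. No copy was found in the windows of Ctss, Ctsc, Ctsk and Ctsz or in that of the other Ctsa start. Of 32851 promoter windows of this length, 7.15% held CACGTG at least once, 0.594% held at least 2 copies and 0.0244% at least 4. The longer form TCACGTG, or CACGTGA on the other strand, contains CACGTG. It was in 3.77% of windows and in those of Lamp1, Ctsa and Ctsd, but not in that of Ctsl. A match describes the letters in the window and is not a bound site. Ctsk and Ctss are next to each other among the coding genes of chromosome 3.

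In the STAT3 livers the set split. Ctsh, Ctsa and Lamp1 were higher than in the controls of both arms, and Ctsk and Ctsl were lower. Ctsc and Ctss were lower in siSTAT3 livers and did not pass the test in mASO STAT3 livers, and Ctsb, Ctsd and Ctsz passed it in neither. A gene is called where edgeR's quasi-likelihood test gave an adjusted p under 0.05 over 15720 genes. In the si arm 3 of the 10 genes were higher, 4 lower and 3 not called, where 45.7% of all tested genes were called (22.4% higher and 23.4% lower). In the mASO arm 3 were higher, 2 lower and 5 not called, where 43.8% of all genes were called (21.3% higher and 22.5% lower). The median log2 fold change of the 10 genes was −0.08 in the si arm, beside −0.04 over all genes, and 0.12 in the mASO arm, beside −0.05. With so large a share of all genes called, a call does not by itself set a gene of the set apart, and what follows describes single genes. Levels that did not overlap between the groups were common among all genes, at 53% in the si arm (25.5% higher and 27.5% lower) and 56.8% in the mASO arm (27.2% higher and 29.6% lower).

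**Figure D1:**
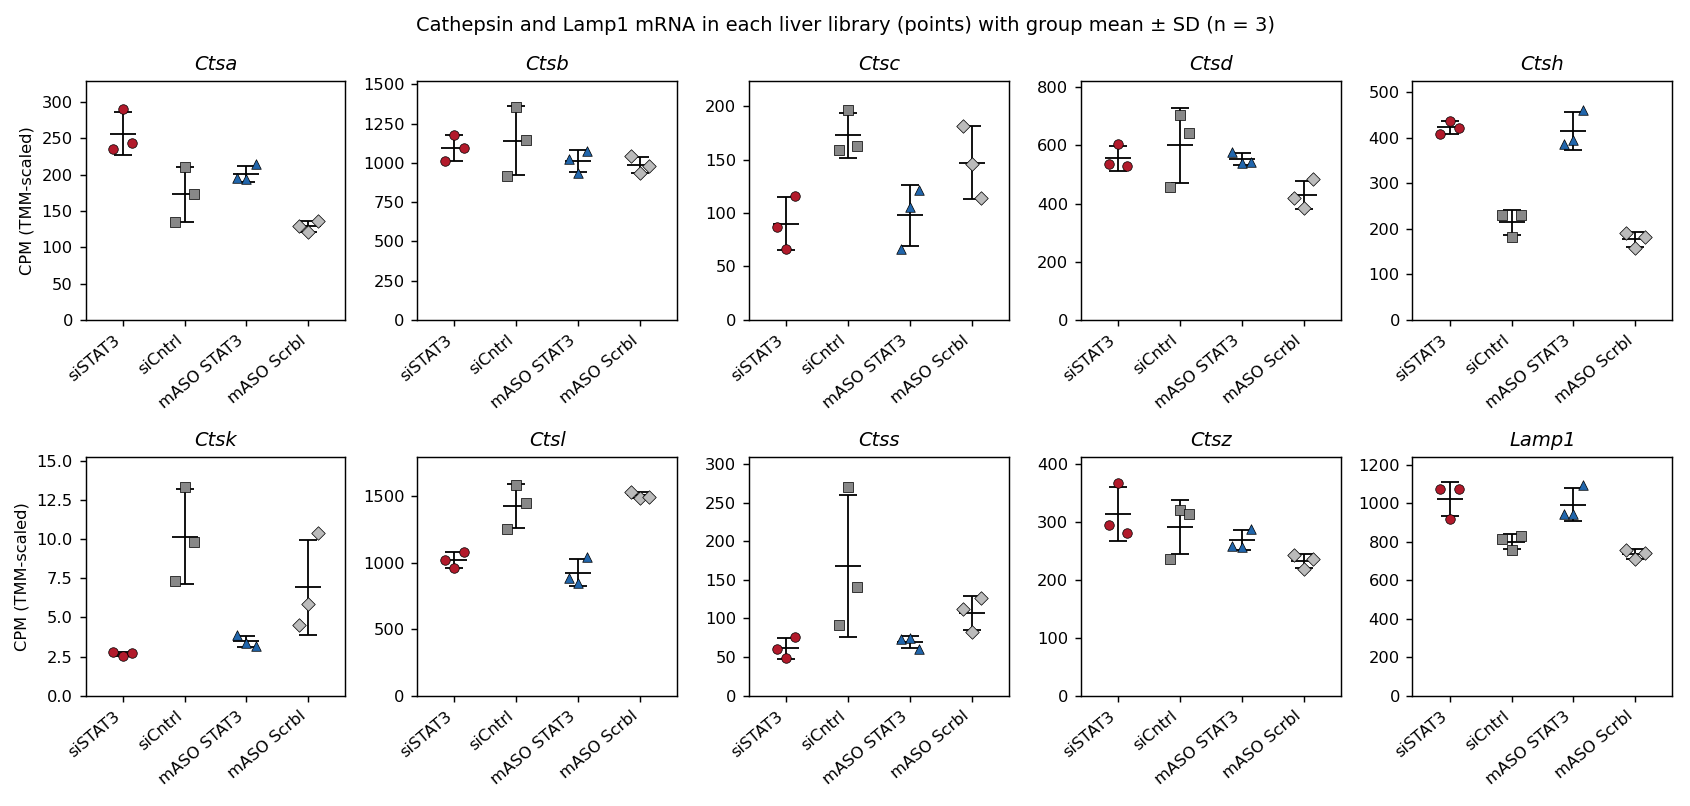
Level of each of the 10 genes in every library, in CPM (a count scaled to the library total, here corrected by TMM), with the mean and SD of 3 libraries per group. The STAT3 libraries lie above their controls in both arms for Ctsa, Ctsh and Lamp1 and below them for Ctsk, Ctsl and Ctss, while 1 siCntrl library reaches 270.2 CPM of Ctss.

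Depth was 39844158 to 67791159 counts per library. Levels are given as CPM on totals scaled by TMM (trimmed mean of M values), whose factors lay at 0.804 to 0.901 in STAT3 libraries and at 1.11 to 1.27 in controls. This scaling bears on directions. With library totals alone the median of all genes moved to −0.53 in the si arm and −0.63 in the mASO arm on the log2 scale. Of the called genes 1655 were then higher and 7266 lower in the si arm, where TMM gave 3515 and 3675, and 1525 higher and 7939 lower in the mASO arm, where TMM gave 3344 and 3542. Directions below are therefore relative to the TMM level, with values by library totals beside many of them. Stat3 stood at 88.2 to 122 CPM, with log2 fold changes of −0.03 ± 0.14 in the si arm and 0.05 ± 0.14 in the mASO arm, not called (edgeR adjusted p = 0.868 and 0.792). With library totals it was called lower, at −0.54 and −0.53 (edgeR adjusted p = 0.00446 and 0.00413), close to the median of all genes at that scaling. Whether Stat3 is called thus depends on the scaling. At both scalings it lay near the median of all genes, which with TMM was −0.04 in the si arm and −0.05 in the mASO arm. Relative to other genes its mRNA was not lower and gives no check of the labels. In bulk tissue fewer cells of a type and less RNA per cell cannot be told apart.

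Ctsh, a cysteine protease that trims the amino ends of peptides, rose most of the 10 genes. It had 409, 437 and 421 CPM in siSTAT3 livers, against 231, 183 and 229.6 CPM in siCntrl livers. It had 387, 395 and 461 CPM in mASO STAT3 livers, against 192, 159 and 181 CPM in mASO Scrbl livers. Every STAT3 library lay above every control library of its arm. The log2 fold change was 0.98 ± 0.14 (SE) in the si arm (1.97-fold, edgeR adjusted p = 7.15e-05), while the mASO arm gave 1.23 ± 0.14 (2.34-fold, edgeR adjusted p = 1.11e-05). Of the 10 genes Ctsh alone was still called higher with library totals, at 0.49 and 0.65. It kept its call under the 14 alternatives tried in each arm, at 0.49 to 1.03 in the si arm and 0.65 to 1.29 in the mASO arm.

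Markers of hepatocytes were mostly higher where Ctsh was higher. Their summed level was 145790 to 158600 CPM in siSTAT3 and 50660 to 88778 CPM in siCntrl livers, and 128960 to 170760 CPM in mASO STAT3 and 57126 to 87579 CPM in mASO Scrbl livers. Of 15 markers, 10 higher and 0 lower were found in the si arm and 13 higher and 0 lower in the mASO arm. All genes had 22.4% higher in the si arm and 21.3% in the mASO arm. The markers did not move by 1 amount. Their log2 fold changes ran from −0.05 to 10.66 (Cyp7a1) in the si arm and from 0.22 to 9.55 (Cyp7a1) in the mASO arm. Cyp2e1 was at 6.77 and 7.19, and Fah at 3.04 and 3.07. With library totals there were 7 higher and 1 lower in the si arm and 9 higher and 0 lower in the mASO arm. All genes then had 10.5% higher and 46.2% lower in the si arm, and 9.7% and 50.5% in the mASO arm. Alb had the most counts of the 15, up to 5605639 in a library, against up to 636331 for Ttr, the next. With library totals Alb was at 0.41 and 0.25, not called (edgeR adjusted p = 0.109 and 0.318). With TMM, Hnf4a and Serpina1a were among those not called in the si arm, at 0.27 and −0.05 (edgeR adjusted p = 0.2785 and 0.874). The part of the 15 markers in the Ctsh change was not tested.

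Ctsa, the serine carboxypeptidase that also protects lysosomal beta-galactosidase and neuraminidase, had 235, 290.5 and 243 CPM in siSTAT3 livers, against 135, 209.9 and 173 CPM in siCntrl livers. It had 195, 194 and 214 CPM in mASO STAT3 livers, against 129, 121 and 136 CPM in mASO Scrbl livers. The groups did not overlap in either arm. Ctsa rose, with log2 fold changes of 0.57 ± 0.15 in the si arm and 0.64 ± 0.15 in the mASO arm (edgeR adjusted p = 0.00839 and 0.00424). With library totals it stood at 0.06 and 0.06 and was not called (edgeR adjusted p = 0.783 and 0.765).

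Lamp1, one of the most abundant glycoproteins of the lysosomal membrane, had 1072, 919.7 and 1071 CPM in siSTAT3 livers, against 813, 755 and 832 CPM in siCntrl livers. It had 944, 944 and 1092 CPM in mASO STAT3 livers, against 758, 711 and 739.5 CPM in mASO Scrbl livers. The STAT3 libraries were again all above their controls. Lamp1 rose, with log2 fold changes of 0.35 ± 0.13 in the si arm and 0.43 ± 0.13 in the mASO arm (edgeR adjusted p = 0.0390 and 0.0152), and turned to −0.14 and −0.15, not called, with library totals. Its si call was lost without siCntrl 1, 2 or 3 or siSTAT3 1 or 3 (edgeR adjusted p = 0.0721, 0.108, 0.0578, 0.123 and 0.116). It was also lost with no filter on low counts (0.130) and in a fit over the compared groups alone (0.0965, both edgeR adjusted p). The mASO call was lost without mASO STAT3 3 or mASO Scrbl 2 (edgeR adjusted p = 0.0756 and 0.05004).

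Ctsb, Ctsd and Ctsz passed the test in neither arm. Ctsb, which cleaves proteins both inside the chain and at the carboxyl end, had 1014, 1177 and 1096 CPM in siSTAT3 livers, against 919, 1359 and 1146 CPM in siCntrl livers. It had 1025, 934 and 1074 CPM in mASO STAT3 livers, against 1044, 938 and 977 CPM in mASO Scrbl livers. The groups overlapped in both arms. The log2 fold changes of Ctsb were −0.06 (95% interval −0.39 to 0.27) in the si arm and 0.04 (−0.30 to 0.37) in the mASO arm.

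Ctsd, the aspartic protease, had 534, 605 and 528 CPM in siSTAT3 livers, against 455, 703 and 642 CPM in siCntrl livers. It had 576, 539 and 542 CPM in mASO STAT3 livers, against 420.1, 385 and 483 CPM in mASO Scrbl livers. The si groups overlapped, and the mASO STAT3 libraries lay above mASO Scrbl. The log2 fold changes were −0.11 ± 0.16 in the si arm and 0.36 ± 0.16 in the mASO arm (edgeR adjusted p = 0.606 and 0.0854), with 95% intervals of −0.46 to 0.24 and 0.01 to 0.71. Ctsz, a carboxypeptidase also called cathepsin X, ranged over 280.1 to 367 CPM in siSTAT3 and 236 to 319.9 CPM in siCntrl livers, and over 256 to 287 CPM in mASO STAT3 and 219 to 242 CPM in mASO Scrbl livers. The si groups overlapped and the mASO groups did not. Its log2 fold changes were 0.11 ± 0.15 in the si arm and 0.21 ± 0.15 in the mASO arm (edgeR adjusted p = 0.558 and 0.281), with 95% intervals of −0.20 to 0.43 and −0.11 to 0.52. With library totals Ctsb was at −0.57 and −0.55, Ctsd at −0.62 and −0.22 and Ctsz at −0.39 and −0.37, and all of these but the mASO value of Ctsd were called lower.

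Ctsl, a main endopeptidase of the lysosome in many tissues, fell in both arms. It had 1021, 961 and 1081 CPM in siSTAT3 livers, against 1254, 1585 and 1451 CPM in siCntrl livers. It had 886, 848 and 1043 CPM in mASO STAT3 livers, against 1533, 1492 and 1497 CPM in mASO Scrbl livers. The groups stood apart in both arms, and the 3 mASO Scrbl libraries lay close together, with an SD of 1.495% of their mean. The log2 fold change was −0.49 ± 0.14 in the si arm (0.714-fold, edgeR adjusted p = 0.0120), while the mASO arm gave −0.70 ± 0.14 (0.614-fold, edgeR adjusted p = 0.00120). The call held under the 14 alternatives tried in each arm, at −0.99 to −0.41 in the si arm and −1.29 to −0.64 in the mASO arm.

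Ctsc, the dipeptidyl peptidase that activates granule proteases of neutrophils and cytotoxic lymphocytes, had 87.3, 66.5 and 116 CPM in siSTAT3 livers, against 159, 197 and 162 CPM in siCntrl livers. It had 66.4, 105 and 121 CPM in mASO STAT3 livers, against 182, 145 and 114 CPM in mASO Scrbl livers. The si groups stood apart and the mASO groups overlapped. In siSTAT3 livers Ctsc fell by 0.94 ± 0.24 on the log2 scale (edgeR adjusted p = 0.00672). Its log2 fold change of −0.59 ± 0.24 in mASO STAT3 livers was not called (edgeR adjusted p = 0.0654). That change was called without mASO STAT3 3 (−0.78, edgeR adjusted p = 0.0384), without mASO Scrbl 3 (−0.75, 0.0350) and with library totals (−1.16, 0.00184). It was smaller without mASO STAT3 1 (−0.38, edgeR adjusted p = 0.234) and without mASO Scrbl 1 (−0.41, 0.235).

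Ctss, the cathepsin that processes the class II invariant chain in antigen-presenting cells, had 59.9, 48.6 and 76.0 CPM in siSTAT3 livers, against 92.0, 270.2 and 140.3 CPM in siCntrl livers. It had 73.0, 74.8 and 60.7 CPM in mASO STAT3 livers, against 112, 82.8 and 126 CPM in mASO Scrbl livers. No STAT3 library reached the lowest control of its arm, and siCntrl 2 stood above all other libraries. In siSTAT3 livers Ctss fell by 1.45 ± 0.32 on the log2 scale (edgeR adjusted p = 0.00295), and without siCntrl 2 it fell by 0.92 (edgeR adjusted p = 0.00668). The log2 fold change of −0.62 ± 0.32 in mASO STAT3 livers was not called (edgeR adjusted p = 0.132). It was called in a fit over the compared groups alone (edgeR adjusted p = 0.0115) and with library totals (−1.19, 0.0116).

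siCntrl 2 also gave the largest share of its counts to the 10 genes together, 0.703%. That share was 0.395% to 0.402% in siSTAT3 livers and 0.476% and 0.569% in the other siCntrl livers. It was 0.359% to 0.394% in mASO STAT3 livers and 0.541% to 0.572% in mASO Scrbl livers. These are shares of library totals, without TMM. With TMM the summed level of the 10 genes overlapped between the groups in both arms. It was 4729 to 4915 CPM in siSTAT3 and 4301 to 5595 CPM in siCntrl livers. In the mASO arm it was 4294 to 4900 CPM in mASO STAT3 and 4257 to 4615 CPM in mASO Scrbl livers.

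Markers of macrophages and other blood cells were read beside Ctsc and Ctss. Of all tested genes 22.4% were called higher and 23.4% lower in the si arm, and 21.3% and 22.5% in the mASO arm. With library totals these shares were 10.5% and 46.2% in the si arm and 9.7% and 50.5% in the mASO arm. Several counts below lie near them. Of 12 markers of monocytes and scar-associated macrophages, 0 higher and 9 lower were found in the si arm and 0 higher and 5 lower in the mASO arm. Their summed level was 322 to 433 CPM in siSTAT3 and 1332 to 2432 CPM in siCntrl livers, and 334 to 387 CPM in mASO STAT3 and 1179 to 2045 CPM in mASO Scrbl livers. Much of this sum was Spp1, which is also in the cholangiocyte list, at 69.0 to 121 CPM in siSTAT3 and 502 to 1347 CPM in siCntrl livers, and 53.5 to 82.7 CPM in mASO STAT3 and 561 to 1292 CPM in mASO Scrbl livers. Not all members were called lower. Ly6c2 was at 0.15 in the si arm, the highest of the list there, and not called (edgeR adjusted p = 0.858). Lyz2 was at −0.73 in the si arm and 0.07 in the mASO arm and Gpnmb at −0.59 and −0.18. Of these values of Lyz2 and Gpnmb the si value of Lyz2 alone was called. Markers of Kupffer cells, the resident macrophages of the liver, overlapped between the groups in their sum, at 659.7 to 974 CPM in siSTAT3 and 625 to 1525 CPM in siCntrl livers, and at 772 to 830.1 CPM in mASO STAT3 and 574 to 1043 CPM in mASO Scrbl livers. The highest of these sums belonged to siCntrl 2. Of the 13 measured, Timd4 was higher and Marco, C1qc, Mrc1 and Mpeg1 were lower in the si arm, which makes 1 higher and 4 lower, and the mASO arm had 2 higher and 1 lower, Clec4f and Timd4 against Marco. With library totals Clec4f and Timd4 were not called, and this list had 0 higher and 6 lower in the si arm and 0 higher and 2 lower in the mASO arm. Of 12 neutrophil markers the si arm had 0 higher and 5 lower and the mASO arm 0 higher and 6 lower. Their sum was 17.7 to 66.9 CPM in siSTAT3 and 54.8 to 107 CPM in siCntrl livers, and 22.4 to 24.6 CPM in mASO STAT3 and 37.3 to 97.0 CPM in mASO Scrbl livers. With library totals the monocyte list had 0 higher and 10 lower in the si arm and 0 higher and 9 lower in the mASO arm, and the neutrophil list 0 higher and 6 lower in the si arm and 0 higher and 8 lower in the mASO arm. The part of these cells in the changes of Ctsc and Ctss was not tested.

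Lymphocyte markers stood at low levels. The counts that follow are read beside the same shares of all genes. These were 22.4% higher and 23.4% lower in the si arm, and 21.3% and 22.5% in the mASO arm. With library totals they were 10.5% and 46.2% in the si arm and 9.7% and 50.5% in the mASO arm. T and NK cell markers summed to 3.29 to 7.71 CPM in siSTAT3 and 4.09 to 6.85 CPM in siCntrl livers, and to 7.21 to 8.18 CPM in mASO STAT3 and 2.71 to 4.70 CPM in mASO Scrbl livers, with 1 higher and 2 lower of 11 in the si arm and 4 higher and 0 lower in the mASO arm. B and plasma cell markers had 0 higher and 0 lower of 7 in the si arm and 3 higher and 0 lower in the mASO arm. Sinusoidal endothelial markers had 0 higher and 3 lower of 10 in the si arm and 1 higher and 1 lower in the mASO arm. Cholangiocyte markers had 0 higher and 4 lower of 6 in the si arm and 0 higher and 3 lower in the mASO arm. With library totals T and NK cell markers had 0 higher and 2 lower in the si arm and 1 higher and 0 lower in the mASO arm, and B and plasma cell markers 0 higher and 1 lower in the si arm and 0 higher and 0 lower in the mASO arm. Endothelial markers then had 0 higher and 7 lower in the si arm and 0 higher and 3 lower in the mASO arm, and cholangiocyte markers 0 higher and 6 lower in the si arm and 0 higher and 5 lower in the mASO arm.

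Ctsk, a collagen-cleaving cathepsin best known from osteoclasts, fell most of the 10 genes. It had 2.79, 2.52 and 2.70 CPM in siSTAT3 livers (88 to 136 counts), against 7.34, 13.4 and 9.81 CPM in siCntrl livers (551 to 930 counts). It had 3.86, 3.37 and 3.20 CPM in mASO STAT3 livers (157 to 177 counts), against 4.54, 5.89 and 10.4 CPM in mASO Scrbl livers (374 to 838 counts). The groups stood apart in both arms, by the smaller gap in the mASO arm. The log2 fold change was −1.93 ± 0.30 in the si arm (0.263-fold, edgeR adjusted p = 0.000160), while the mASO arm gave −0.997 ± 0.29 (0.501-fold, edgeR adjusted p = 0.0126). Without mASO Scrbl 3 the mASO value was −0.59 and not called (edgeR adjusted p = 0.0844).

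Markers of stellate cells and myofibroblasts, the collagen-making cells of the liver, were mostly lower where Ctsk was lower. Their sum was 293 to 422 CPM in siSTAT3 and 1433 to 1917 CPM in siCntrl livers, and 417 to 502 CPM in mASO STAT3 and 999 to 2182 CPM in mASO Scrbl livers, where mASO Scrbl 3 had the highest. Of 12 markers the si arm had 1 higher and 9 lower and the mASO arm 3 higher and 8 lower. Among all genes 22.4% were higher and 23.4% lower in the si arm, and 21.3% and 22.5% in the mASO arm. Acta2, the actin that marks myofibroblasts, was the lowest of them, at −6.71 ± 0.29 in the si arm and −6.45 ± 0.28 in the mASO arm. Reln was the 1 higher in the si arm, at 0.64 (edgeR adjusted p = 0.0169). Lrat was also above 0 there, at 0.40, and not called (edgeR adjusted p = 0.162). The highest value in the mASO arm was 1.15. Dcn was at −0.97 in the si arm and at −0.04, not called, in the mASO arm (edgeR adjusted p = 0.912). With library totals the 12 markers had 0 higher and 10 lower in the si arm and 1 higher and 8 lower in the mASO arm. All genes then had 10.5% higher and 46.2% lower in the si arm, and 9.7% and 50.5% in the mASO arm. Their part in the Ctsk change was not tested.

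**Figure D2:**
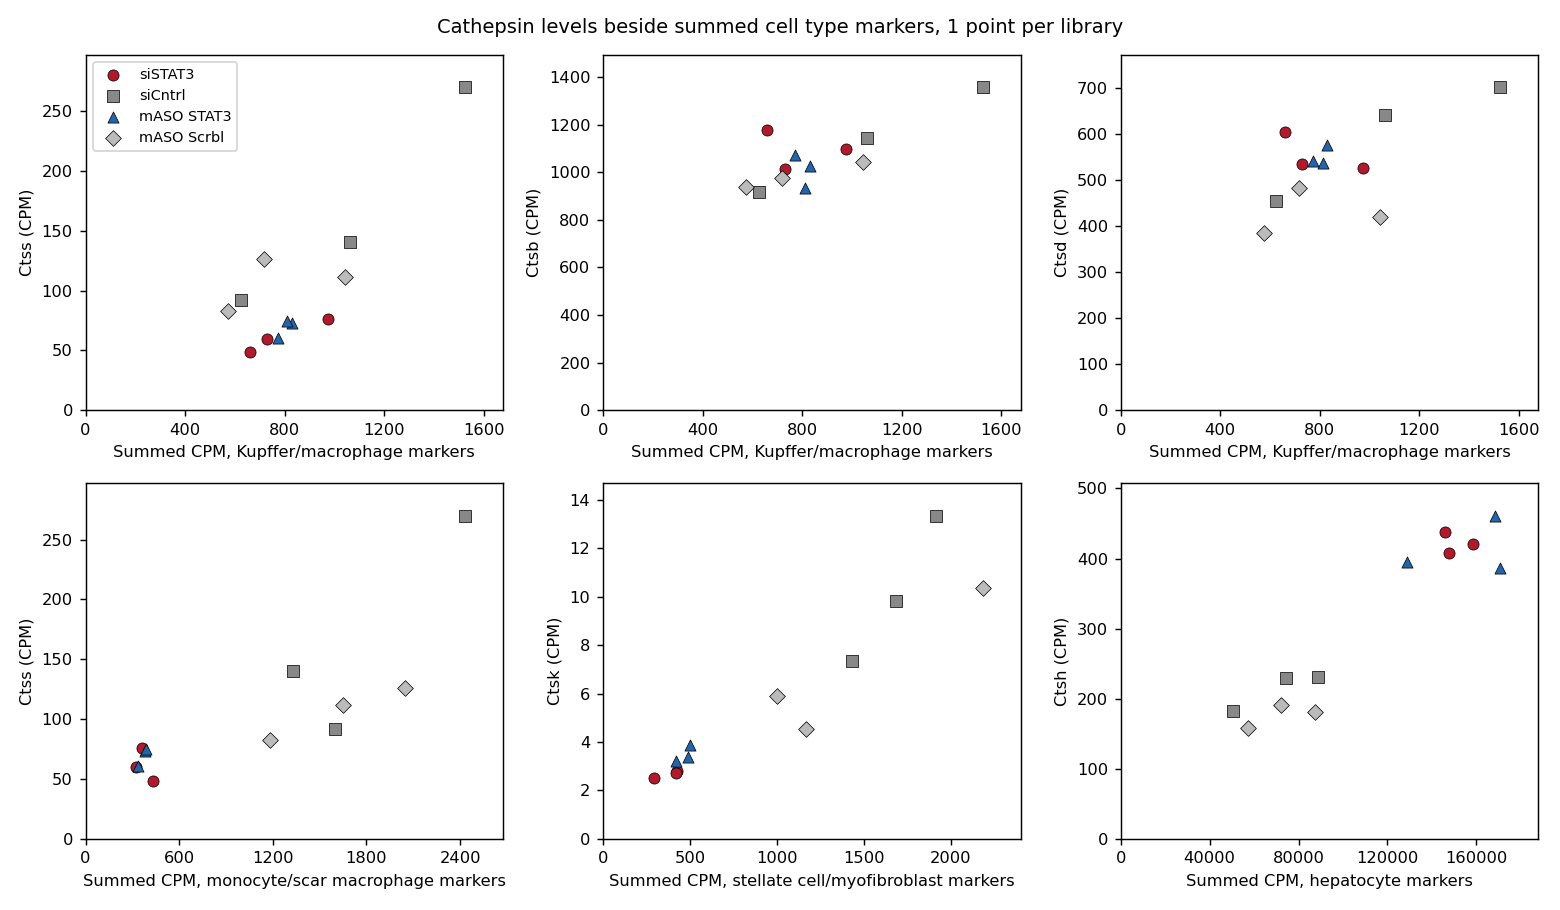
Level of Ctss, Ctsb, Ctsd, Ctsk and Ctsh (CPM, vertical axes) against the summed CPM of cell type markers (horizontal axes), 1 point per library. In the Kupffer cell sum the groups overlap and siCntrl 2 stands alone at 1525 CPM. In the monocyte, stellate cell and hepatocyte sums the STAT3 libraries lie apart from the controls.

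**Figure D3:**
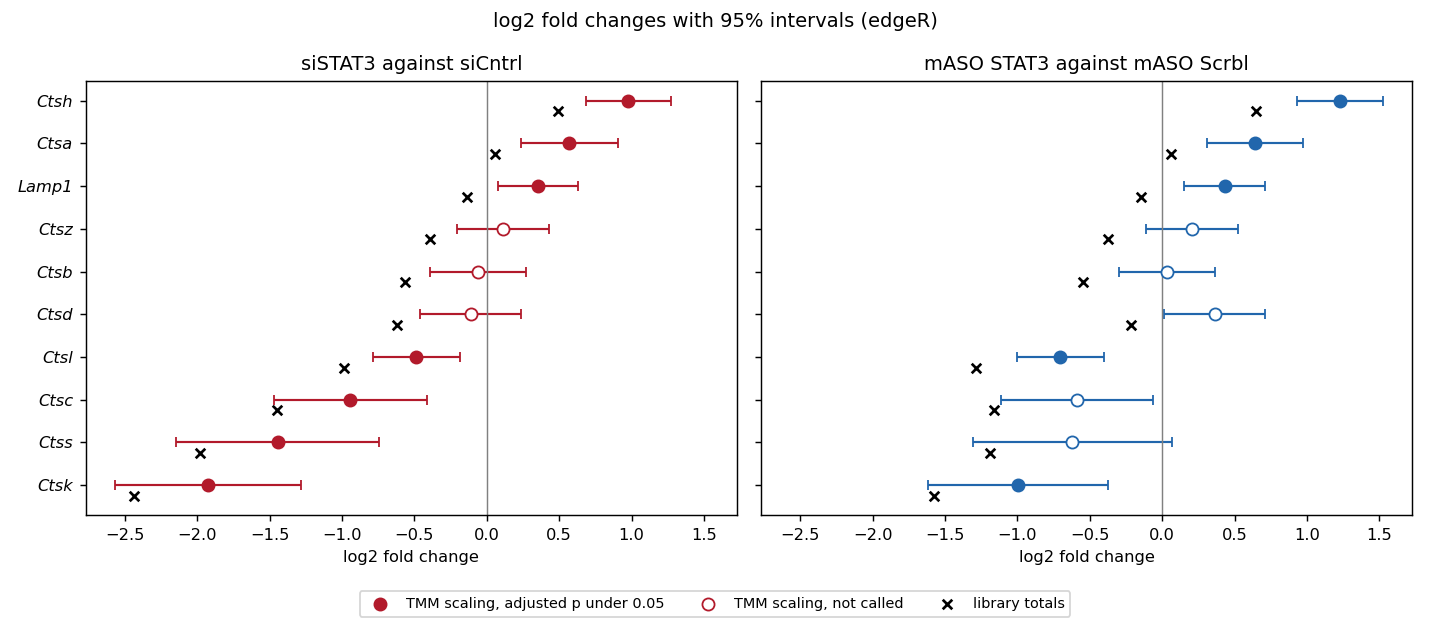
log2 fold changes of the 10 genes in the si arm and in the mASO arm, with 95% intervals from edgeR, and the values with scaling by library totals. Ctsh is highest and Ctsk lowest in both arms, and each value with library totals lies below its TMM value.

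The ratio of a cathepsin to Lamp1 within a library does not depend on how libraries are scaled. It is a ratio of reads and not per length, so only its difference between groups is read. Ctsl to Lamp1 was 0.952, 1.04 and 1.01 in siSTAT3 livers, against 1.54, 2.10 and 1.74 in siCntrl livers. It was 0.939, 0.899 and 0.955 in mASO STAT3 livers, against 2.02, 2.10 and 2.02 in mASO Scrbl livers. Every STAT3 library lay below every control of either arm. Ctsh to Lamp1 averaged 0.417 ± 0.0514 in siSTAT3 and 0.267 ± 0.0225 in siCntrl livers (SD, n = 3 each), and 0.417 ± 0.00646 in mASO STAT3 and 0.240 ± 0.0153 in mASO Scrbl livers. Ctsk to Lamp1 averaged 0.00262 ± 0.000110 in siSTAT3 and 0.0128 ± 0.00442 in siCntrl livers, and 0.00353 ± 0.000583 in mASO STAT3 and 0.00943 ± 0.00414 in mASO Scrbl livers. Relative to Lamp1, Ctsh was thus higher and Ctsl and Ctsk lower in STAT3 libraries of both arms.

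In the si arm 5 of 9 ratios did not overlap between the groups (Ctsh higher, Ctsc, Ctsk, Ctsl and Ctss lower), and neither did the ratios of 56.3% of all genes to Lamp1 (14.5% higher and 41.8% lower). In the mASO arm 8 of 9 did not overlap (Ctsa and Ctsh higher, Ctsb, Ctsc, Ctsk, Ctsl, Ctss and Ctsz lower), beside 63.8% of all genes (14.7% higher and 49.1% lower). Each ratio that did not overlap had an exact two-sided permutation p of 0.1, the smallest that 3 libraries against 3 allow, and 0.139 after Benjamini-Hochberg adjustment over 18 ratios. The si count was 8 without siSTAT3 2 and 7 without siCntrl 1. Ctsb to Lamp1 was 1.08 ± 0.175 in siSTAT3 and 1.44 ± 0.338 in siCntrl livers, which overlapped, and 1.02 ± 0.0573 in mASO STAT3 and 1.34 ± 0.0326 in mASO Scrbl livers, which did not. Ctsd to Lamp1 overlapped in both arms, at 0.550 ± 0.0936 in siSTAT3 and 0.754 ± 0.186 in siCntrl livers, and at 0.559 ± 0.0579 in mASO STAT3 and 0.583 ± 0.0611 in mASO Scrbl livers.

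**Figure D4:**
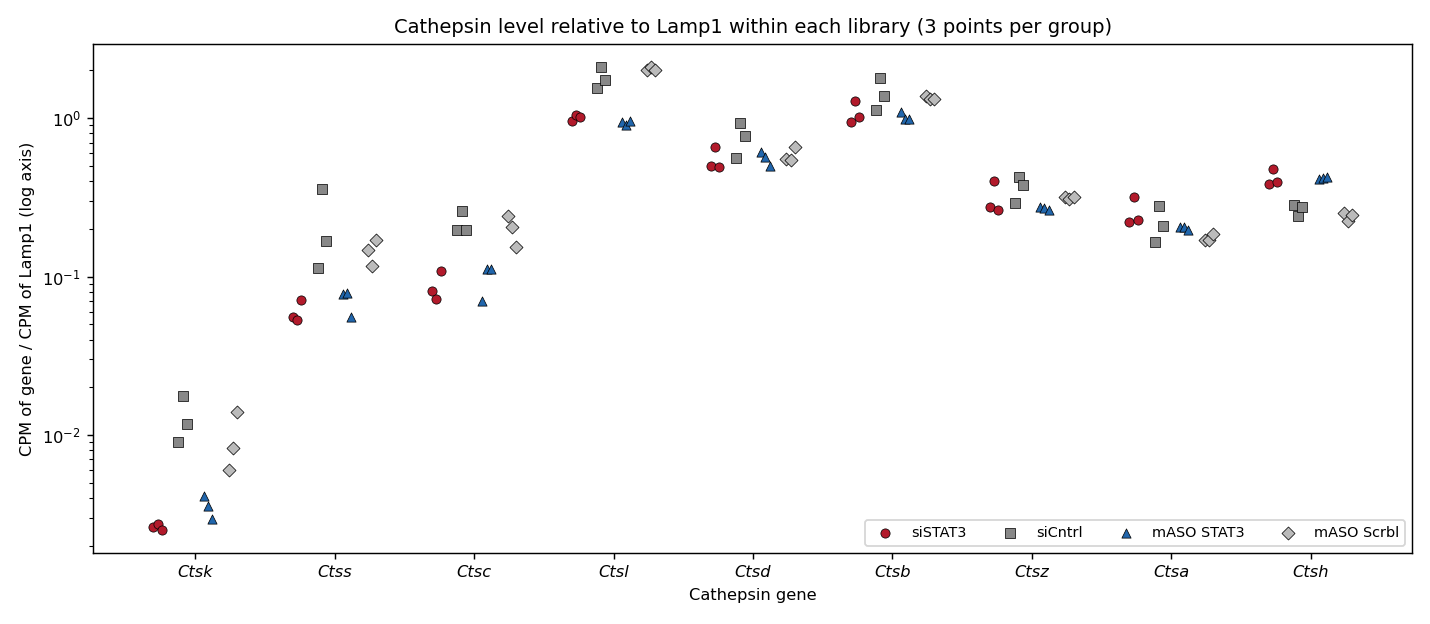
CPM of each cathepsin divided by CPM of Lamp1 in the same library, on a log axis, 3 libraries per group. For Ctsl, Ctsk, Ctss and Ctsc the STAT3 libraries lie below their controls in both arms, and for Ctsh they lie above.

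Per length, Lamp1 was the highest and Ctsk the lowest of the 10 genes in all 4 groups. As CPM per kilobase of the principal transcript in GENCODE vM21, the level of Lamp1 was 458 ± 39.4 in siSTAT3 and 359 ± 17.9 in siCntrl livers, and 446 ± 38.4 in mASO STAT3 and 330.3 ± 10.7 in mASO Scrbl livers (SD, n = 3 each). On the same scale Ctsk was at 1.77 ± 0.0922 in siSTAT3 and 6.73 ± 1.998 in siCntrl livers, and at 2.30 ± 0.229 in mASO STAT3 and 4.59 ± 2.02 in mASO Scrbl livers. Ctsd and Ctsh, the next below Lamp1 in both STAT3 groups, did not differ beyond their spread there, at 261 ± 20.1 and 261 ± 8.90 CPM per kilobase in siSTAT3 livers and 259.5 ± 9.69 and 256 ± 25.2 in mASO STAT3 livers. With the length of all exons combined, Lamp1 and Ctsk kept the ends of the order, but the level of Ctsh in siSTAT3 livers was 93.9 CPM per kilobase and that of Ctsd 236. Which annotation was counted is not given in the sources used, and the middle of the order is uncertain for that reason.

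The arms were then set against each other. By edgeR's test of the difference 0 of the 10 genes were called, where 0.00636% of all genes were called. DESeq2 and limma voom also called 0 of the 10. At an unadjusted edgeR p under 0.05, a looser threshold with no share of all genes beside it, there was 1, Ctsk. The Ctsk difference, mASO minus si, was 0.93 ± 0.41 on the log2 scale (95% interval 0.05 to 1.81, edgeR adjusted p = 0.673). That of Ctss was 0.83 ± 0.45 (−0.15 to 1.80, edgeR adjusted p = 0.704) and that of Ctsc 0.35 ± 0.34 (−0.39 to 1.09, edgeR adjusted p = 0.836), so their calls in the si arm alone are not shown to be a difference between the arms. Over 19 alternatives the difference of Ctss was 0.30 to 1.12, lowest without siCntrl 2, that of Ctsc 0.17 to 0.58, lowest without mASO STAT3 3 and highest without siSTAT3 3, and that of Ctsk 0.68 to 1.34, and none was called in any of them. The difference was 0.47 (−0.02 to 0.97) for Ctsd, −0.22 (−0.64 to 0.21) for Ctsl and 0.25 (−0.16 to 0.66) for Ctsh. For Ctsa the interval was −0.40 to 0.54, for Ctsb −0.37 to 0.56, for Ctsz −0.36 to 0.54 and for Lamp1 −0.31 to 0.47.

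Between the controls, mASO Scrbl against siCntrl, 0 of the 10 genes were called by edgeR, DESeq2 or limma voom. Of all genes edgeR called 0.0127%. At an unadjusted edgeR p under 0.05, a looser threshold with no share of all genes beside it, there were 3 of the 10. These 3 were lower in mASO Scrbl, Ctsa at −0.42 ± 0.15, Ctsd at −0.48 ± 0.16 and Ctsz at −0.32 ± 0.15 on the log2 scale (edgeR adjusted p = 0.569, 0.569 and 0.634). Ctsl differed least, at 0.08 ± 0.14. Between the STAT3 groups, mASO STAT3 against siSTAT3, 0 were called by edgeR, DESeq2 or limma voom, and 0% of all genes were called by edgeR. Ctsa, the gene with an unadjusted p under 0.05, was at −0.35 ± 0.15 (edgeR adjusted p = 0.822), lower in mASO STAT3, and the others lay between −0.23 (Ctsz) and 0.38 (Ctsk). These comparisons share their libraries with the arms.

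Among the other cathepsins in the table, the si arm had 3 higher and 1 lower of 6 measured and the mASO arm 4 higher and 1 lower. All genes had 22.4% higher and 23.4% lower in the si arm, and 21.3% and 22.5% in the mASO arm. Ctsf, a papain-like cysteine cathepsin, had 58.8, 64.1 and 65.0 CPM as its lowest, median and highest value in siSTAT3 livers, against 14.2, 16.8 and 19.8 CPM in siCntrl livers. It had 56.0, 57.3 and 66.1 CPM in mASO STAT3 livers, against 13.5, 13.6 and 18.6 CPM in mASO Scrbl livers. Ctsf rose in both arms with no overlap, by 1.89 ± 0.16 in the si arm and 1.98 ± 0.16 in the mASO arm on the log2 scale (edgeR adjusted p = 9.61e-07 and 7.31e-07), and by 1.39 and 1.39 with library totals. Ctso, another papain-like cathepsin, was at 0.44 ± 0.16 in the si arm and 0.77 ± 0.16 in the mASO arm (edgeR adjusted p = 0.0341 and 0.00138), and with library totals at −0.05 and 0.19. Ctsw, known from cytotoxic lymphocytes, was at 1.32 ± 0.41 in the si arm and 2.53 ± 0.42 in the mASO arm (edgeR adjusted p = 0.0169 and 0.000282), with levels of 0.719 to 1.23 CPM in siSTAT3 and 0.320 to 0.546 CPM in siCntrl livers, and 0.986 to 1.80 CPM in mASO STAT3 and 0.182 to 0.285 CPM in mASO Scrbl livers. Ctse, an aspartic protease, rose in the mASO arm, at 0.98 ± 0.33 (edgeR adjusted p = 0.0284). In the si arm Ctse was at 0.75 and not called (edgeR adjusted p = 0.081). With library totals Ctse was at 0.22 and 0.39, not called (edgeR adjusted p = 0.607 and 0.351). Ctsw was then at 0.80, not called, in the si arm and at 1.96, called, in the mASO arm (edgeR adjusted p = 0.124 and 0.00168).

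Ctsj, one of the cathepsins that rodents express in the placenta, had 0 counts in both STAT3 groups, against 155 to 256 counts per library in siCntrl and 73 to 129 in mASO Scrbl. Against a floor of 3 counts over a group it was at least 113-fold lower in siSTAT3 and at least 64.0-fold lower in mASO STAT3 livers. Ctsj has close relatives in the mouse genome, so reads may have been split between copies and its level is uncertain.

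Inhibitors of cathepsins and related proteins were read as 1 list, and not all of them are known to inhibit cathepsins. They moved both ways. The si arm had 4 higher and 3 lower of 12 measured and the mASO arm 6 higher and 2 lower. Shares over all genes were 22.4% higher and 23.4% lower in the si arm, and 21.3% and 22.5% in the mASO arm. Cstb, the intracellular inhibitor stefin B, had 57.9, 58.8 and 62.0 CPM as its lowest, median and highest value in siSTAT3 livers, against 146, 167 and 196 CPM in siCntrl livers. It had 53.4, 68.9 and 72.5 CPM in mASO STAT3 livers, against 145, 159.6 and 167 CPM in mASO Scrbl livers. Cstb fell in both arms with no overlap, at −1.51 ± 0.15 in the si arm and −1.28 ± 0.14 in the mASO arm (edgeR adjusted p = 2.98e-06 and 1.18e-05). Ctla2a, related to the propeptide of cathepsin L, also fell, at −2.23 ± 0.22 in the si arm and −1.76 ± 0.22 in the mASO arm (edgeR adjusted p = 3.86e-06 and 2.49e-05), though it has a near copy, Ctla2b, with which reads could be shared. Of the plasma proteins of the cystatin superfamily Hrg was higher, at 2.36 ± 0.15 in the si arm and 2.17 ± 0.15 in the mASO arm (edgeR adjusted p = 9.79e-08 and 1.72e-07) and so was Fetub, at 1.204 ± 0.15 in the si arm and 1.62 ± 0.15 in the mASO arm (edgeR adjusted p = 2.48e-05 and 2.08e-06). Ahsg was at 0.23 ± 0.19 in the si arm and 1.004 ± 0.20 in the mASO arm (edgeR adjusted p = 0.358 and 0.000980), called in the mASO arm alone, and at −0.26 and 0.43 with library totals. Kng1, which encodes kininogen, an inhibitor of cysteine proteases, was at 1.04 ± 0.17 in the si arm and 1.31 ± 0.17 in the mASO arm (edgeR adjusted p = 0.000257 and 3.95e-05). With library totals Hrg was at 1.86 and 1.59, Fetub at 0.70 and 1.04 and Kng1 at 0.53 and 0.73.

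Among the other lysosomal proteases and peptidases the si arm had 1 higher and 3 lower of 8 measured and the mASO arm 1 higher and 3 lower. Beside them 45.7% of all genes were called in the si arm and 43.8% in the mASO arm. Lgmn, the asparaginyl endopeptidase legumain, which processes several cathepsins, had 74.5, 79.1 and 90.5 CPM as its lowest, median and highest value in siSTAT3 livers, against 372, 467 and 567 CPM in siCntrl livers. It had 80.9, 80.9 and 89.2 CPM in mASO STAT3 livers, against 307, 331 and 376 CPM in mASO Scrbl livers. Lgmn fell in both arms with no overlap, at −2.53 ± 0.16 in the si arm and −2.01 ± 0.16 in the mASO arm (edgeR adjusted p = 1.24e-07 and 6.55e-07). Prcp, a carboxypeptidase, fell too, at −0.98 ± 0.18 in the si arm and −0.94 ± 0.18 in the mASO arm (edgeR adjusted p = 0.000559 and 0.000817). Cpq, a peptidase, was the one higher, at 0.97 ± 0.12 in the si arm and 1.24 ± 0.12 in the mASO arm (edgeR adjusted p = 2.48e-05 and 3.14e-06), and at 0.48 and 0.66 with library totals. Scpep1 was also lower in the si arm (−0.48, edgeR adjusted p = 0.0186). Tpp2, 1 of the 3 lower in the mASO arm (−0.50, edgeR adjusted p = 0.0136), is on the list although it is a peptidase of the cytosol.

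Of 27 lysosomal glycosidases and sulfatases the si arm had 8 higher and 6 lower and the mASO arm 9 higher and 7 lower, where 45.7% and 43.8% of all genes were called in about equal parts higher and lower. Gla, the alpha-galactosidase deficient in Fabry disease, had 7.95 to 11.03 CPM in siSTAT3 livers, against 48.6 to 60.1 CPM in siCntrl livers, and 10.04 to 11.3 CPM in mASO STAT3 livers, against 44.9 to 55.5 CPM in mASO Scrbl livers. Gla fell in both arms with no overlap, at −2.61 ± 0.16 in the si arm and −2.25 ± 0.15 in the mASO arm (edgeR adjusted p = 6.11e-08 and 1.62e-07). Manba, a beta-mannosidase, was lower, at −1.14 ± 0.12 in the si arm and −0.90 ± 0.12 in the mASO arm (edgeR adjusted p = 7.99e-06 and 5.22e-05), and Fuca1, a fucosidase, higher, at 0.92 ± 0.13 in the si arm and 0.76 ± 0.13 in the mASO arm (edgeR adjusted p = 9.73e-05 and 0.000417), with 0.42 and 0.18 by library totals. Of 19 lipid enzymes and transporters the si arm had 8 higher and 1 lower and the mASO arm 9 higher and 1 lower. The lower one in each was Asah1, the acid ceramidase, at −0.78 ± 0.16 in the si arm and −0.60 ± 0.16 in the mASO arm (edgeR adjusted p = 0.00176 and 0.00929). Smpd1, the acid sphingomyelinase, was higher, at 0.73 ± 0.13 in the si arm and 0.64 ± 0.13 in the mASO arm (edgeR adjusted p = 0.000414 and 0.00114), with 0.25 and 0.06 by library totals. With library totals the lipid list had 2 higher and 7 lower in the si arm and 1 higher and 6 lower in the mASO arm, and the sugar list 2 higher and 16 lower in the si arm and 0 higher and 14 lower in the mASO arm.

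Over all tested genes 45.7% were called in the si arm and 43.8% in the mASO arm, in about equal parts higher and lower. Of 11 other proteins of the lysosomal membrane the si arm had 1 higher and 3 lower and the mASO arm 1 higher and 3 lower. The higher one was Lamp2, a relative of Lamp1 that takes part in autophagy, at 0.63 ± 0.18 in the si arm and 0.75 ± 0.18 in the mASO arm (edgeR adjusted p = 0.0120 and 0.00479), and at 0.15 and 0.16 with library totals. Cd63, a tetraspanin of late endosomes and exosomes, had 27.5 to 47.6 CPM in siSTAT3 livers, against 182 to 278 CPM in siCntrl livers, and 25.8 to 34.8 CPM in mASO STAT3 livers, against 184 to 209 CPM in mASO Scrbl livers. It fell in both arms with no overlap, at −2.78 ± 0.22 in the si arm and −2.69 ± 0.22 in the mASO arm (edgeR adjusted p = 5.43e-07 and 7.75e-07). Cd68, the macrophage relative of Lamp1, fell at −2.44 ± 0.19 in the si arm and −2.69 ± 0.19 in the mASO arm (edgeR adjusted p = 4.84e-07 and 2.34e-07). Lamp1, Lamp2 and Cd68 belong to 1 protein family and thus moved in different directions at the TMM scaling, while with library totals Lamp1 was at −0.14 and −0.15.

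Of 19 subunits and accessory proteins of the vacuolar ATPase, the proton pump that acidifies the lysosome, the si arm had 1 higher and 10 lower and the mASO arm 2 higher and 9 lower. Their median log2 fold change was −0.55 in the si arm, beside −0.04 over all genes, and −0.45 in the mASO arm, beside −0.05. Called shares of all genes were 22.4% higher and 23.4% lower in the si arm, and 21.3% and 22.5% in the mASO arm. Atp6v1h was at −1.18 ± 0.15 in the si arm and −0.97 ± 0.15 in the mASO arm (edgeR adjusted p = 2.54e-05 and 0.000126) and Atp6v1a, the catalytic subunit, at −0.92 ± 0.14 in the si arm and −0.71 ± 0.14 in the mASO arm (edgeR adjusted p = 0.000113 and 0.000857). Of 24 genes that sort lysosomal enzymes the si arm had 3 higher and 7 lower and the mASO arm 1 higher and 11 lower. They are read beside the same shares of all genes. Both receptors for mannose 6-phosphate fell, Igf2r at −0.87 ± 0.17 in the si arm and −0.85 ± 0.16 in the mASO arm (edgeR adjusted p = 0.000741 and 0.000949) and M6pr at −0.41 ± 0.14 in the si arm and −0.37 ± 0.14 in the mASO arm (edgeR adjusted p = 0.0257 and 0.0387). The sorting receptor Sort1 fell as well, at −1.52 ± 0.25 in the si arm and −1.502 ± 0.25 in the mASO arm (edgeR adjusted p = 0.000297 and 0.000341). Gnptg, a subunit of the enzyme that makes the mannose 6-phosphate tag, was higher, at 0.46 ± 0.14 in the si arm and 0.76 ± 0.14 in the mASO arm (edgeR adjusted p = 0.0161 and 0.000695), and at −0.02 and 0.18 with library totals.

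In the list of the TFEB family and autophagy the si arm had 9 higher and 3 lower of 21 and the mASO arm 8 higher and 1 lower. Across all genes 22.4% were higher and 23.4% lower in the si arm, and 21.3% and 22.5% in the mASO arm. Tfeb had 14.5, 15.8 and 16.2 CPM as its lowest, median and highest value in siSTAT3 livers, against 8.20, 9.78 and 11.9 CPM in siCntrl livers. It had 13.3, 14.7 and 16.7 CPM in mASO STAT3 livers, against 9.52, 9.82 and 9.88 CPM in mASO Scrbl livers. Tfeb rose, at 0.64 ± 0.16 in the si arm and 0.61 ± 0.16 in the mASO arm (edgeR adjusted p = 0.00446 and 0.00575), and was at 0.13 and 0.04 with library totals. Its relative Tfe3 fell, at −0.48 ± 0.12 in the si arm and −0.54 ± 0.12 in the mASO arm (edgeR adjusted p = 0.00475 and 0.00224). Gabarapl1, a protein of the autophagosome membrane, had 518 to 629 CPM in siSTAT3 livers, against 85.8 to 99.6 CPM in siCntrl livers, and 357 to 445 CPM in mASO STAT3 livers, against 60.7 to 83.8 CPM in mASO Scrbl livers. It rose, at 2.63 ± 0.16 in the si arm and 2.37 ± 0.16 in the mASO arm (edgeR adjusted p = 8.74e-08 and 1.62e-07), and by 2.14 and 1.79 with library totals. With library totals this list had 3 higher and 11 lower in the si arm and 2 higher and 10 lower in the mASO arm.

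With library totals 10.5% of all genes were called higher and 46.2% lower in the si arm, and 9.7% higher and 50.5% lower in the mASO arm, and the counts of the lists are read beside these shares. The vacuolar ATPase then had 0 higher and 15 lower in the si arm and 1 higher and 16 lower in the mASO arm, and the sorting list 0 higher and 16 lower in the si arm and 0 higher and 21 lower in the mASO arm. Membrane proteins had 0 higher and 8 lower in the si arm and 0 higher and 8 lower in the mASO arm, and other proteases 1 higher and 7 lower in the si arm and 1 higher and 5 lower in the mASO arm. Inhibitors and related proteins had 3 higher and 5 lower in the si arm and 5 higher and 6 lower in the mASO arm. The other cathepsins had 1 higher and 1 lower in the si arm and 2 higher and 1 lower in the mASO arm.

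**Figure D5:**
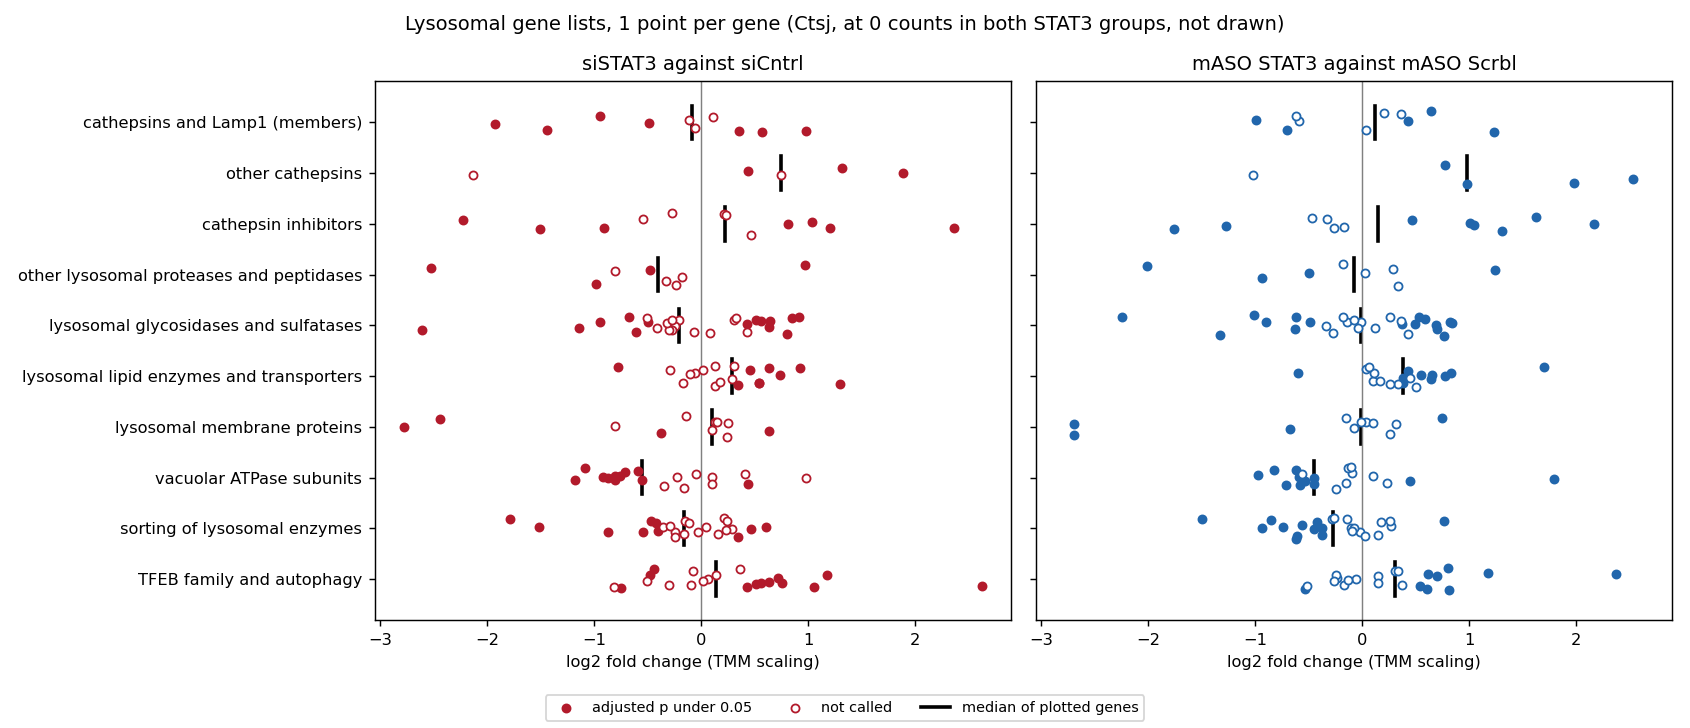
log2 fold changes of the genes of each lysosomal list in the si arm and the mASO arm, 1 point per gene, filled where the adjusted p is under 0.05, with a bar at the median of the plotted genes. Called genes lie on both sides of 0 in every list but the other cathepsins, whose lower gene, Ctsj, is not drawn, and the vacuolar ATPase has the lowest median, −0.55 in the si arm and −0.45 in the mASO arm.

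The genes whose log2 CPM followed each cathepsin most closely differed from one cathepsin to the next. Over 12 libraries and among 8092 genes of at least 10 CPM, Ctss had the highest Pearson r with Cd84 (0.980) and Clec12a (0.978), and Ctsk with Lbh (0.983) and Mxra8 (0.979). Ctsh was closest to F2 (0.995), which encodes prothrombin, and Hoga1 (0.994), and Ctsl to 1110007C09Rik (0.981) and Abracl (0.967). Ctsd was closest to the lysosomal genes Hexa (0.970) and Psap (0.946), and Ctsc to Mpeg1 (0.928) and Asah1 (0.924). Ctsb was closest to Aif1 (0.879) and C1qb (0.873), both known from macrophages. Ctsa was closest to Agap3 (0.981) and Ldb1 (0.968), Ctsz to Ambp (0.919) and Clta (0.892), and Lamp1 to Rmnd5a (0.979) and Klf15 (0.978). These 12 points share depth and scaling and fall into STAT3 and control libraries. With the group means removed, r was 0.964 for Ctss with Cd84, 0.961 for Ctsd with Hexa and 0.756 for Ctsl with Abracl. Among themselves, Ctsa, Ctsb, Ctsd and Ctsz followed each other within groups at r of 0.812 to 0.933, while Lamp1 and Ctsa had an r of −0.322. These r pool all 12 libraries. The SD of the 4 cathepsins was largest in siCntrl, at 16.0% to 21.7% of the mean, against 3.73% to 7.02% in mASO STAT3. The r among the 4 thus rest in good part on the siCntrl libraries.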

How the data were processed

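RNA of 12 liver samples was sequenced after poly(A) selection with a stranded Illumina kit, per the labels' protocols. Raw counts, 1 whole number per gene symbol and library, were deposited by the authors. TopHat and Cufflinks are named without version, per the submitters' processing notes. No source used here gives the build, the annotation, the counting tool or the use of strand, and antisense or overlapping genes and close paralogs are uncertain.

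The 12 libraries were fitted together in edgeR 4.0.16 (R 4.3.3), 1 term for each group, after TMM and the edgeR filter with a minimum count of 10 and a minimum total of 15. It left 15720 genes and took out 9820. Robust quasi-likelihood F tests had 8 residual degrees of freedom, the biological variation coefficient was 0.247, and p-values were adjusted by Benjamini-Hochberg over all tested genes. Ratios to Lamp1 were compared by exact permutation. Alternatives were library totals, DESeq2 size factors, DESeq2 (1.42.0), limma voom (3.58.1), other filters, a replicate block, the compared groups alone and leaving out each library. The fit was also run on simulated counts in which few genes changed, in 1 group and equally in both directions. That setting cannot test the scaling, since many genes changed here and TMM factors differed between STAT3 and control libraries. The text names all 10 genes, Stat3, in each other list up to 4 genes with the smallest p in each arm, genes behind small counts or opposite directions, and the 2 genes most like each of the 10. Kng1, Ahsg, M6pr, Tfeb, Tfe3, Acta2, Spp1, Lyz2 and Gpnmb were named for their roles after their values were seen. Dcn, Lrat, Ly6c2, Alb, Ttr, Hnf4a and Serpina1a were also named after their values were seen, to show differences within a list. The 10 genes and the lists were chosen with earlier results of these data known.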

Additional observations from a re-analysis of the deposited data

How the results depend on the processing

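With library totals in place of TMM the counts of the 10 genes were 1 higher and 7 lower in the si arm and 1 higher and 6 lower in the mASO arm. All genes had 10.5% higher and 46.2% lower in the si arm, and 9.7% and 50.5% in the mASO arm. Signs then turned for Ctsz (−0.39) and Lamp1 (−0.14) in the si arm, for Ctsb (−0.55), Ctsd (−0.22), Ctsz (−0.37) and Lamp1 (−0.15) in the mASO arm, for Lamp1 in the difference of the arms (−0.0097) and for Ctsd between the STAT3 groups (0.019). Leaving out 1 library at a time gave 2 to 3 higher and 4 lower in the si arm, and 2 to 3 higher and 2 to 3 lower in the mASO arm. Over all genes it gave 5980 to 6587 calls in the si arm (7190 with all libraries) and 5672 to 6214 in the mASO arm (6886). Values near 0 changed sign without 1 library, and their ranges were −0.193 to 0.084 for Ctsb, −0.276 to 0.016 for Ctsd and −0.014 to 0.188 for Ctsz in the si arm, and −0.012 to 0.089 for Ctsb in the mASO arm. They were −0.092 to 0.220 for Ctsa and −0.050 to 0.227 for Ctsb in the difference of the arms, and −0.0087 to 0.157 for Ctsl between the controls. Between the STAT3 groups they were −0.066 to 0.346 for Ctsc, −0.045 to 0.055 for Ctsd and −0.112 to 0.020 for Ctsh, and with no filter Ctsd was at 0.0069. The cause was not tested.

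Calls over all genes in the difference of the arms were 1, and 62 by DESeq2, 2 by limma voom, 3 with no filter, 2 with the filter of 1 CPM in 3 libraries, 0 with the replicate block and 0 to 8 without 1 library. Between the controls they were 2, and 5 with library totals, 79 by DESeq2, 7 with no filter and 0 to 13 without 1 library. Between the STAT3 groups they were 0, and 79 by DESeq2, 6 with no filter and 0 to 5 without 1 library. Ratios that did not overlap in the si arm were 5 with Lamp1 as the denominator, 8 with Psap and 5 to 8 without 1 library.

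Same-numbered libraries did not deviate together once group means were removed (correlations of −0.238 to 0.187). With 3 libraries per group this cannot exclude that the numbers pair the samples. With the replicate block the 10 genes gave 3 higher and 4 lower in the si arm and 3 higher and 2 lower in the mASO arm, with 6759 and 6473 calls over all genes. Groups of 3 limit the exact tests to p of 0.1.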
